A study of Mus musculus with 4 samples.

Results

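The clustered protocadherin genes are 57 of the 21887 protein-coding genes of the mouse annotation used here, and they were chosen by position and name: every protein-coding gene of chromosome 18 whose symbol begins with Pcdha, Pcdhb or Pcdhg. The alpha cluster held 14 of them, the beta cluster 22 and the gamma cluster 21. They were examined in 4 ChIP-exo peak lists of Sox2 from D3 mouse embryonic stem cells, with 1 library per protein form. ChIP-exo trims the isolated DNA with an exonuclease up to the bound protein, so that peaks are narrow. All 4 libraries came from the same cell line. The first was of endogenous Sox2, isolated with an antibody against Sox2 (7153 peaks). The other three were of Sox2 fused to HaloTag and pulled out on HaloLink resin: Halo-Sox2 (6558 peaks), Halo-Sox2M (1711 peaks), labelled M47G, F50 and M51G, and Halo-Sox2D (13833 peaks), labelled as residues 1 to 120 of Sox2. The sources used here do not say how the fusions were expressed, at what level, or whether untagged Sox2 remained in those cells. Control libraries (input DNA or resin alone) were not analysed here, and the lists of a single cell line cannot check the cell type.

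Protocadherins are adhesion molecules of the cadherin superfamily. Each neuron switches on a few of the clustered genes, largely at random, and the proteins recognise identical copies on other cell surfaces, which lets a neuron tell its own branches from those of others. Every alpha or gamma messenger joins 1 variable first exon, which has its own promoter, to exons shared by the whole cluster, while the beta genes stand alone without shared exons. Promoter choice is known to involve DNA methylation, CTCF and cohesin. Sox2 is an HMG-box transcription factor of pluripotent and neural progenitor cells. The HMG box is the part that binds DNA; the changes in Halo-Sox2M lie in it, and Halo-Sox2D keeps it and lacks the C-terminal activation region.

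The annotation showed this arrangement. The 14 alpha genes began at different places and ended within 1240 bp of one another, and the 21 gamma genes ended within 10 bp of one another. Alpha genes were 43.99 to 257.4 kb long and gamma genes 22.33 to 180.1 kb, while the beta genes were 2.34 to 5.271 kb long and lay one after another. A peak near the top of the alpha or gamma cluster therefore lies in the bodies of all its genes at once, and the members are not independent of each other. The lower end of a gene is its end with the smaller coordinate, and in alpha and gamma genes the variable exon begins there. In mm10 coordinates the alpha cluster ran from 36930285 to 37188897, the beta cluster from 37264998 to 37521419 and the gamma cluster from 37661775 to 37841873. The whole locus measured 911.6 kb from Pcdha1 to the upper end of the gamma genes.

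Peaks lay in the gamma cluster and its lower approach, few lay in the beta cluster, and none lay in the alpha cluster. Over the locus there were 19 peaks of the 4 libraries together: 0 in the alpha cluster, 0 between alpha and beta, 2 in the beta cluster, 4 between beta and gamma, and 13 in the gamma cluster. With a margin of 50 kb on each side the number was 21. By library, the locus with its margins held 2 endogenous Sox2 peaks, 1 Halo-Sox2 peak, 0 Halo-Sox2M peaks and 18 Halo-Sox2D peaks. The outermost counted peak was a Halo-Sox2D peak 38.53 kb above the gamma genes, and the nearest peak left out was a Halo-Sox2 peak 59.98 kb above them. For Halo-Sox2D, 6.47% of 2953 genome windows as long as the locus held as many peaks as the 16 found between Pcdha1 and the upper end of the gamma genes, or more. Since peak positions chose this locus, these counts are descriptions and no test was run on them.

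**Figure D1:**
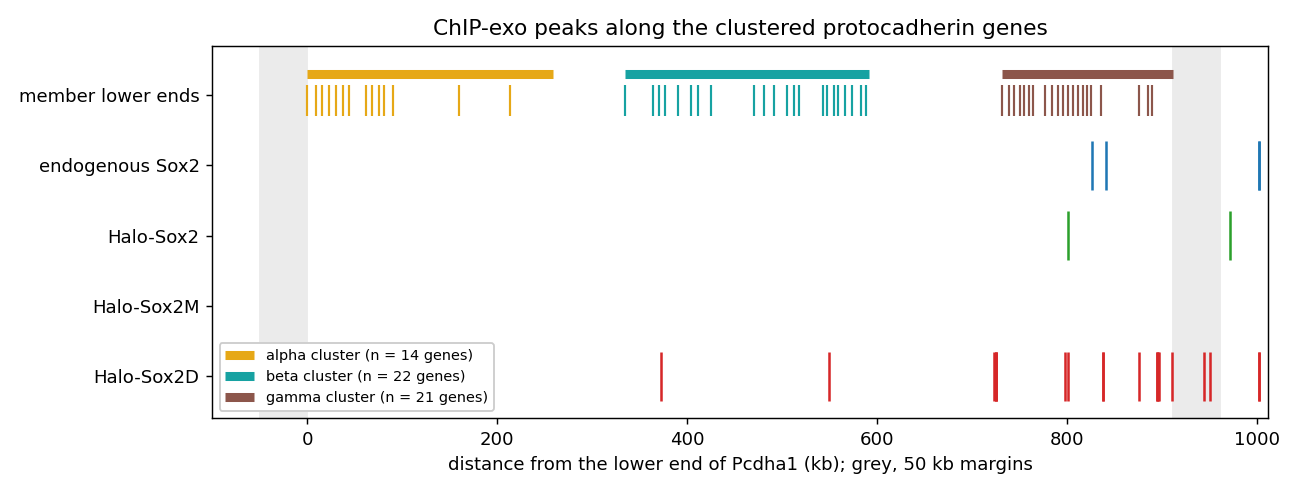
Peak positions of the 4 libraries (coloured ticks) along the locus, in kb from the lower end of Pcdha1, under the lower ends of the 57 members and bars for the clusters; grey bands are the 50 kb margins. The alpha cluster has no tick in any library, and 13 of the 19 ticks between the grey bands fall in the gamma cluster.

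The empty alpha cluster holds 12 genes with alternate variable exons, Pcdha1 to Pcdha12, and the C-type genes Pcdhac1 and Pcdhac2, whose promoters are used more evenly by neurons. The stretch without any peak of the 4 libraries reached from 147.3 kb below Pcdha1 to 114.0 kb above the alpha genes, 519.9 kb in all. Within it the lower ends of the alpha genes lay 147.3 to 237.3 kb from the nearest Halo-Sox2D peak. The distances were 227.9 to 441.3 kb for Halo-Sox2M, 514.5 to 666.8 kb for endogenous Sox2 and 587.7 to 726.0 kb for Halo-Sox2. The exact 95% Poisson interval of a count of 0 reaches 3.69 peaks. Uniform placement over the annotated genome would put 1.28 Halo-Sox2D, 0.627 endogenous Sox2, 0.570 Halo-Sox2 and 0.106 Halo-Sox2M peaks in the alpha cluster. All 4 lie within that interval, so a shortage relative to uniform placement was not detectable at the length of these lists. When the genome was tiled with 10439 windows as long as the alpha cluster, 42.2% had no peak in any of the 4 libraries, and 55.7% had no Halo-Sox2D peak. The whole empty stretch is longer than the cluster. Of 27918 gaps between neighbouring peaks of the 4 libraries together (median 15.24 kb), 3.95% were as long or longer. Of 13502 gaps between Halo-Sox2D peaks (median 47.37 kb) 8.41% were. These shares count gaps by number, and many gaps are short because peaks clump. A fixed place falls more readily in a long gap, so the shares do not show how rare such a stretch is. The share of genome length in gaps this long is not given here.

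In the beta cluster only Halo-Sox2D had peaks, 1 in each of 2 genes. At Pcdhb3 (37300799 to 37304585) the peak lay at 37302869 to 37302885, 2.078 kb above the lower end of the gene. At Pcdhb16 (37477768 to 37483038) it lay at 37479920 to 37479936, 2.16 kb above the lower end. Both peaks were therefore inside genes and away from their ends. The other 20 beta genes had no peak in their bodies in any library. Uniform placement would give 1.27 Halo-Sox2D peaks, and 27.0% of windows of this length held as many or more. Endogenous Sox2, Halo-Sox2 and Halo-Sox2M, with 0 peaks each, had 0.621, 0.565 and 0.105 by uniform placement.

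The space of 140.4 kb between beta and gamma contains Slc25a2, which encodes a mitochondrial ornithine carrier, and Taf7, which encodes a subunit of the general transcription factor TFIID. Neither gene had a peak in its body. The 4 peaks of this space were all of Halo-Sox2D and lay above Taf7, close to the gamma cluster. One was at 37653455 to 37653457, 0.474 kb above the pseudogene Gm8242 and 8.319 kb below Pcdhga1. The others, at 37655606 to 37655621, 37655896 to 37655903 and 37655983 to 37655988, formed 1 group 5.79 to 6.162 kb below Pcdhga1. Pcdhga1 is the lowest of the gamma genes. All 4 peaks also lay in the bodies of Gm37013, Gm38666 and Gm38667, protein-coding genes that are not members by symbol. These genes run from inside the alpha cluster to the upper end of the gamma genes, so the peaks of the beta and gamma clusters lay in them too.

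The gamma cluster held 10 Halo-Sox2D peaks, 2 endogenous Sox2 peaks, 1 Halo-Sox2 peak and 0 Halo-Sox2M peaks in 180.1 kb. The density of Halo-Sox2D was 5.553 peaks per 100 kb, with a genome mean of 0.494. That is 11.2-fold over uniform placement, with an exact Poisson interval of 5.39 to 20.7 that covers counting error only. Of 14999 windows of the same length over the genome, 0.393% held 10 or more Halo-Sox2D peaks. Joined wherever centres lay within 500 bp, the 10 peaks made 7 places. The endogenous Sox2 density was 4.58-fold over uniform placement (0.555 to 16.6) and that of Halo-Sox2 2.52-fold (0.0638 to 14.0). For these 2 libraries 9.6% and 24.2% of windows held as many peaks or more. For Halo-Sox2M uniform placement gives 0.0736 peaks, so a shortage could not have been detected with a list of that length.

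**Figure D2:**
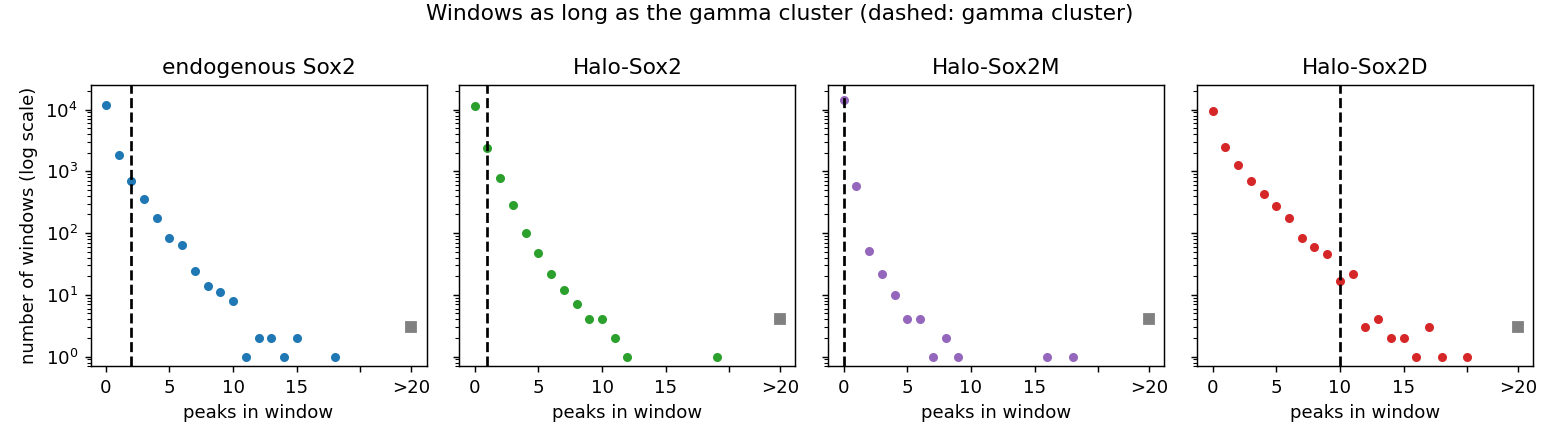
Number of genome windows of 180.1 kb (vertical, log scale) by the number of peaks they hold (horizontal), for each library; the grey square collects windows with more than 20 peaks and the dashed line marks the gamma cluster. The line stands at 2, 1, 0 and 10 peaks from left to right, and for Halo-Sox2D it stands where few windows remain.

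Among the gamma genes with alternate exons, peaks came nearest to Pcdhgb5, a gene of the B type. Its lower end is at 37730971. A Halo-Sox2D peak at 37731004 to 37731020 lay 41 bp above that end, and the Halo-Sox2 peak at 37731327 to 37731331 lay 358 bp above it. Their centres were 317 bp apart, and this was the only place inside the locus where peaks of different libraries came within 500 bp of each other. Next below it, Pcdhga8 had a Halo-Sox2D peak at 37728012 to 37728031, 2.316 kb above its lower end. Pcdhga11 had an endogenous Sox2 peak at 37756932 to 37756936, 1.161 kb above its lower end. Above Pcdhga12, Halo-Sox2D had a pair of peaks at 37768227 to 37768228 and 37768238 to 37768250, 2.647 and 2.664 kb above the lower end, and endogenous Sox2 had a peak at 37771612 to 37771614, 6.033 kb above it. Pcdhga12 was thus the only alternate gamma gene that was nearest to peaks of both endogenous Sox2 and Halo-Sox2D, but these were 3369 bp or more apart. The Halo-Sox2D peaks at Pcdhga8 and Pcdhga12 and those at Pcdhb3 and Pcdhb16 all lay 2.078 to 2.664 kb above the lower end of their gene, an observation made after the values were seen.

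The C-type gamma genes Pcdhgc3, Pcdhgc4 and Pcdhgc5 close the cluster. Pcdhgc3 begins at 37806410 and had a Halo-Sox2D peak at 37806278 to 37806292, 0.125 kb below its lower end. Of the 10 Halo-Sox2D peaks, 5 lay above the lower end of Pcdhgc5, in the stretch that is common to the bodies of all 21 gamma genes. A pair stood 5.068 and 5.092 kb above that end (37824614 to 37824614 and 37824634 to 37824642). A second pair stood 6.864 and 7.174 kb above it (37826401 to 37826420 and 37826716 to 37826724). The last peak, at 37840783 to 37840793, was 1.085 kb below the shared upper end of the genes. No other library had a peak in this common stretch. Gene models without exon positions were used, so it was not tested whether any peak lay in an exon.

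**Figure D3:**
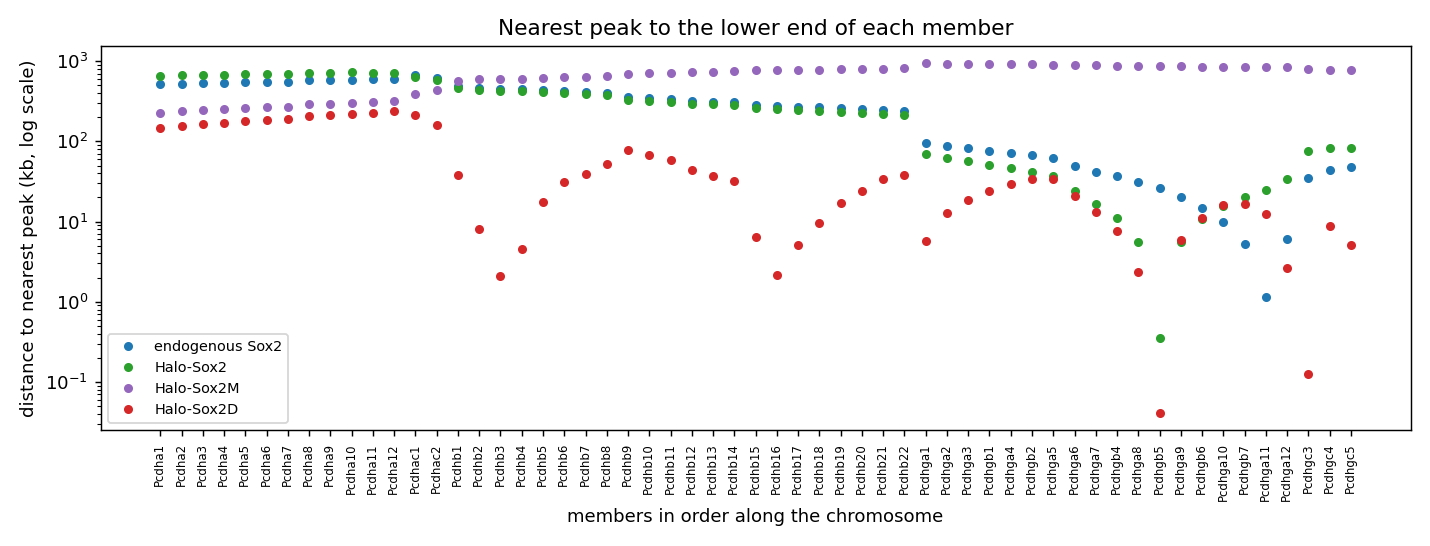
Distance in kb (log scale) from the lower end of each of the 57 members to the nearest peak of each library, with members in order along the chromosome. Halo-Sox2D points dip at Pcdhb3, Pcdhb16, Pcdhgb5 and Pcdhgc3, and all Halo-Sox2M points lie at 227.9 kb or more.

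Counted gene by gene, the picture depended on the window because the gamma genes share their upper part. With windows of the gene body and 50 kb on each side, 39 of 57 members had a Halo-Sox2D peak, 21 an endogenous Sox2 peak, 18 a Halo-Sox2 peak and 0 a Halo-Sox2M peak. Of all protein-coding genes 57.7%, 27.4%, 32.3% and 6.37% had one. By cluster, the Halo-Sox2D members were 0 of 14 alpha, 18 of 22 beta and 21 of 21 gamma genes. The 18 beta genes rest on only 2 peaks, those in Pcdhb3 and Pcdhb16, and in the body 2 of 22 beta genes had one. The endogenous Sox2 and Halo-Sox2 members were all gamma genes, 21 of 21 and 18 of 21. In the gene body alone, the numbers were 23, 18, 12 and 0 of 57 for Halo-Sox2D, endogenous Sox2, Halo-Sox2 and Halo-Sox2M, beside 20.4%, 7.41%, 9.05% and 1.31% of all protein-coding genes. These gene counts rest on few peaks: all 18 endogenous Sox2 members hold 1 or both of the same 2 peaks, and all 12 Halo-Sox2 members hold the same peak.

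The lower ends, where the variable exons begin, are not shared, and there the members stood near the background of all lower ends. That background is not one of gene starts, because without strand the lower end of another gene can be its start or its finish. The share for gene starts alone was not computed. Within 5 kb of the lower end, 7 of 57 members had a Halo-Sox2D peak (12.3%, with 13.5% of all protein-coding genes). They were Pcdhb3, Pcdhb4, Pcdhb16, Pcdhga8, Pcdhgb5, Pcdhga12 and Pcdhgc3. Pcdhb3 and Pcdhb4 were counted through the same peak, so even these members are not all independent. By cluster they were 0 of 14 alpha, 3 of 22 beta (13.6%) and 4 of 21 gamma genes (19.0%). Endogenous Sox2 had 1 such member, Pcdhga11, and Halo-Sox2 had 1, Pcdhgb5 (background 2.98% and 4.22%). Halo-Sox2M had 0, with a background of 0.9%. The median distance from a lower end to the nearest Halo-Sox2D peak was 12.45 kb over the gamma genes, 31.62 kb over the beta genes and 187.8 kb over the alpha genes. Of the 18 Halo-Sox2D peaks in the locus with its margins, 2 lay within 1 kb of an end of a protein-coding gene (11.1%, 95% Wilson interval 3.1 to 32.8%), against 21.3% of all Halo-Sox2D peaks (20.6 to 22.0%).

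The density of the locus relative to its surroundings was among the values that chose it, so the ratios to the flanks are descriptions, and their intervals show counting error without serving as a test. The flanks, 1 Mb on each side beyond the margins, held 47 Halo-Sox2D, 17 endogenous Sox2, 11 Halo-Sox2 and 2 Halo-Sox2M peaks. The density of the locus with its margins, divided by that of the flanks, was 0.233 for endogenous Sox2 (exact binomial interval 0.0261 to 0.980). It was 0.180 for Halo-Sox2 (0.00418 to 1.24) and 0.757 for Halo-Sox2D (0.414 to 1.33). Peaks close to each other may come from 1 binding event, which these intervals ignore. For Halo-Sox2M the ratio was 0, with an upper bound of 10.5. The flanks were uneven. The lower flank held 3 endogenous Sox2 peaks and the upper flank 14, of which 4 each were nearest to Spry4, an antagonist of FGF signalling, and to Pcdh1, a protocadherin outside the clusters. Relative to the lower flank alone the endogenous Sox2 ratio was 0.659, so the lower value against both flanks rests mostly on the upper flank.

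The same measure for Halo-Sox2D, again as a description, was highest in the gamma cluster and lowest in the alpha cluster. The gamma cluster was 2.36-fold as dense as the flanks (1.07 to 4.74), the beta cluster 0.332-fold (0.0391 to 1.27), and the alpha cluster, with 0 peaks, had an upper bound of 0.631. The gamma cluster held 14.3 times as many Halo-Sox2D peaks per length as alpha and beta together (3.05 to 134). That is 10 peaks in the gamma cluster against 2, or 7 places against 2 when peaks within 500 bp were joined. Gene lower ends were also densest there: 11.7 per 100 kb in gamma, 8.58 in beta and 5.41 in alpha. The part of this spacing in the peak density was not tested.

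**Figure D4:**
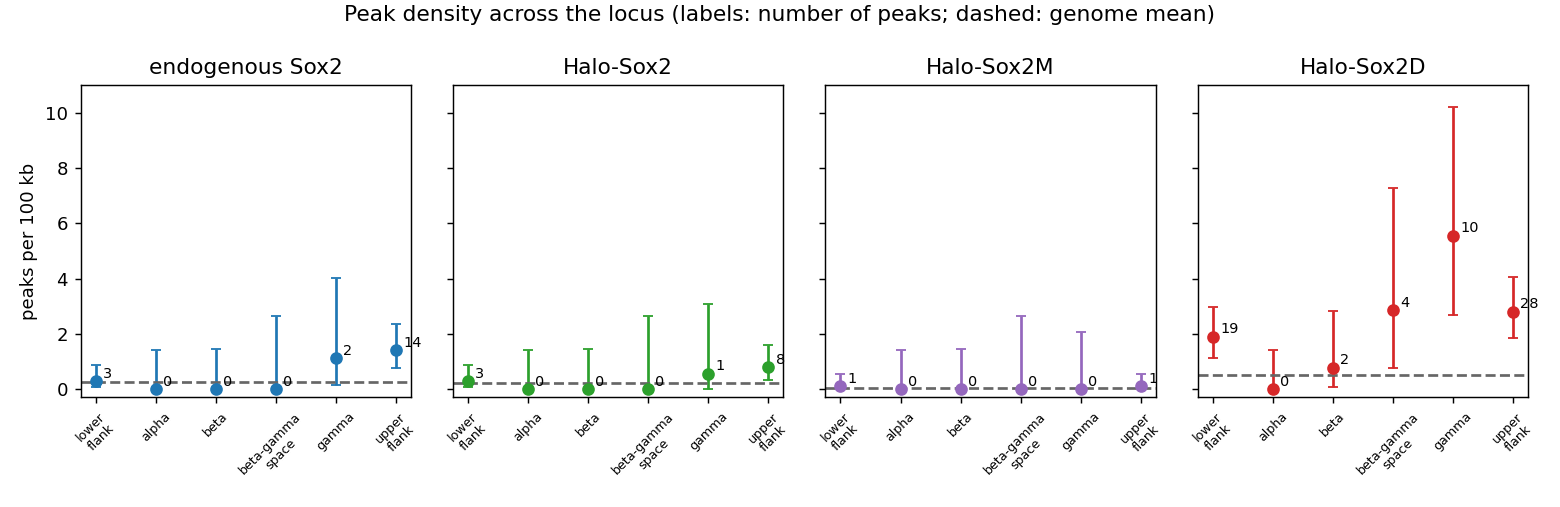
Peaks per 100 kb (points) with exact 95% Poisson intervals (bars) in the flanks, the clusters and the beta-gamma space, for each library; numbers give the peaks counted and dashed lines the genome mean. Halo-Sox2D reaches its highest point, 5.553 peaks per 100 kb, in the gamma cluster, and has 0 peaks in the alpha cluster.

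Between the protein forms the counts in the locus, which the rule also used, are given as descriptions, and the lists other than Halo-Sox2D had few peaks here. Halo-Sox2D had 18 peaks and Halo-Sox2 1 in the locus with its margins, while the Halo-Sox2D list held 2.24 times as many peaks between the outermost annotated genes. As a share of its list, the locus was 8.03-fold larger for Halo-Sox2D than for Halo-Sox2 (exact binomial interval 1.27 to 335), and 4.41-fold larger than for endogenous Sox2 (1.06 to 39.2). In the flanks the same ratios were 1.91 (0.974 to 4.08) and 1.36 (0.764 to 2.52). Their intervals overlap those of the locus, which does not show that the ratios are alike, and the difference was not tested. Within the gamma cluster alone they were 4.46 (0.635 to 194) and 2.45 (0.523 to 23.0). The difference between Halo-Sox2 and Halo-Sox2M, 1 against 0 peaks, was not detectable at this list length: 0 of 1409 Halo-Sox2M peaks on chromosomes allows a share of up to 0.261% (exact 95% binomial interval), while Halo-Sox2 had 0.0161%. Endogenous Sox2 and Halo-Sox2 had 2 and 1 peaks with no position in common. With so few peaks, each 1 to 20 bp wide, this shows no difference between these forms. For no pair of libraries is the genome-wide share of peaks that overlap or lie close given here. With 1 library per form none of these ratios has a replicate check, and list length cannot be told apart from sequencing depth and calling threshold. Ratios to endogenous Sox2 also set HaloLink resin against an antibody, so protein form and isolation cannot be told apart there.

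Other arrays of related genes gave a scale for these values. Halo-Sox2D had 3.79 peaks per 100 kb in the Hoxa cluster (4 peaks), 1.73 in Hoxc (2 peaks), 0.575 in Hoxb (1 peak) and 0 in Hoxd. The 2219 kb of the chromosome 13 histone cluster had 2.03 per 100 kb (45 peaks). The gamma cluster, at 5.553 (2.66 to 10.2), was the highest of these. Its interval overlapped that of each of the others, 1.03 to 9.71 for Hoxa and, barely, 1.48 to 2.71 for the histone cluster. Overlap of separate intervals does not show that densities are alike, and the differences were not tested. Endogenous Sox2 had 0 peaks in all 4 Hox clusters and 19 in the histone cluster. Uniform placement would give 0.23 (Hoxd) to 0.42 (Hoxb) peaks in a Hox cluster and 5.38 in the much longer histone cluster. A shortage in a Hox cluster could therefore not have been detected.

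Among protocadherins outside the clusters, 5 of 12 had a Halo-Sox2 peak within 50 kb, 3 a Halo-Sox2D peak, 1 an endogenous Sox2 peak and 0 a Halo-Sox2M peak, where all protein-coding genes had 32.3%, 57.7%, 27.4% and 6.37%. The gene with most was Pcdh1, which lies in the upper flank, with 7 Halo-Sox2D, 4 endogenous Sox2 and 2 Halo-Sox2 peaks. Only Pcdh17 and Pcdh19 had a peak in the gene body, 1 of Halo-Sox2 each. Of 19 genes for factors that act on protocadherin promoter choice and chromatin architecture, 15 had a Halo-Sox2D peak within 50 kb, 8 an endogenous Sox2 peak, 6 a Halo-Sox2 peak and 1 a Halo-Sox2M peak. Wapl, which releases cohesin from DNA, was the one with peaks in its body in more than 1 library (2 of endogenous Sox2, 1 of Halo-Sox2 and 1 of Halo-Sox2D). Ctcf had 3 Halo-Sox2D peaks within 50 kb and none of the other libraries.

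Of 12 genes for binding and signalling partners, 9, 4, 5 and 0 had a peak of Halo-Sox2D, endogenous Sox2, Halo-Sox2 and Halo-Sox2M within 50 kb, and Rac1, a small GTPase of the actin cytoskeleton, had 1 endogenous Sox2 and 1 Halo-Sox2 peak in its body. Of 13 other cadherin genes, 7, 9, 7 and 1 had one within 50 kb. The shares of all protein-coding genes, in that order of libraries, were 57.7%, 27.4%, 32.3% and 6.37%. In the gene body they were 20.4%, 7.41%, 9.05% and 1.31%. Cdh1, the gene of E-cadherin, which joins embryonic stem cells to each other, had peaks of all 4 libraries in its body: 1 of endogenous Sox2, 3 of Halo-Sox2, 1 of Halo-Sox2M and 2 of Halo-Sox2D. Cdh4 had 2, 1, 0 and 2 in the same order, Fat1 2, 0, 0 and 1, Cdh6 2, 1, 0 and 0, and Celsr1 0, 3, 0 and 1. These genes, like Wapl and Rac1, were named for body peaks in 2 or more libraries. The share of all genes with such peaks is not given here. The bodies of these cadherin genes were 66.9 kb (Cdh1) to 457.0 kb (Cdh4) long, and length was not adjusted for. No gene of the alpha or beta clusters had a peak of more than 1 library in its body. None could, since the alpha cluster had no peak and the beta cluster only the 2 Halo-Sox2D peaks. In the gamma cluster all 18 genes with an endogenous Sox2 peak in the body also had Halo-Sox2D peaks there. Of these, 12 held the Halo-Sox2 peak too, through bodies that overlap.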

How the data were processed

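The build mm10 and the tool Bowtie2 are named, per the submitters' processing notes. Not given in the sources used here are the Bowtie2 version, the peak caller, its threshold and what was done with reads that match more than 1 place. The last point bears on these genes, whose exons resemble each other, and its effect was not tested. The authors deposited 1 list of peak coordinates per library, with no score or read number, so depth is unknown. Peaks were 1 to 20 bp wide (median 11 bp).

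Gene positions came from the RefSeq table of GRCm38.p6, which shares coordinates with mm10 and gives no strand or exons. A peak was placed by its centre. Uniform placement used the peaks between the first and last annotated gene of each chromosome (2703 Mb in all). Intervals are 95% and cover counting error only. Groups were the labels' own, with 1 library each, so no model or test was run. Python 3.11.15, numpy 2.4.6, pandas 2.3.3 and scipy 1.17.1 were used, and the counting was tested on simulated data.

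The members, regions and gene lists were chosen with earlier results of these data known. Named were the members with or nearest to a peak in the locus, the genes within the locus that results turn on, and list genes with a body peak in 2 or more libraries. Spry4, Pcdh1, Pcdh17, Pcdh19 and Ctcf were named after their values were seen. Alternatives were other margins, windows, flanks and overlap distances, joined peaks, chromosome 18 as the base, and leaving out 11 bins of 100 kb with 15 or more peaks.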

Additional observations from a re-analysis of the deposited data

How the results depend on the processing

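Of 72 recomputed values, 65 stayed within their interval or, for counts, within 1.5 times the value reported. This tally is a weak check. All Halo-Sox2M values were 0 at every setting, and intervals that rest on 1 or 2 peaks are wide. The endogenous Sox2 ratio to the flanks went from 0.233 to 0.659 with the lower flank alone and still counted as within. The density of the gamma cluster was not among the recomputed values. With a margin of 100 kb the locus held 4 endogenous Sox2 peaks and 2 Halo-Sox2 peaks, the added ones in Diaph1. Within 5 kb of the lower end 1, 1 and 7 members had a peak of endogenous Sox2, Halo-Sox2 and Halo-Sox2D, and in the body alone 23 had one of Halo-Sox2D. With centres within 500 bp, 1 Halo-Sox2 peak met a Halo-Sox2D peak, and by overlap 0 did. The Halo-Sox2D density relative to uniform placement was 3.60 over the genome, 3.59 on chromosome 18 and 3.63 without dense bins, none of which touched the locus. A stricter peak threshold was not run, since the lists hold no score. No paired analysis was possible because each group has 1 library, and for the same reason no library could be left out.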

Other observations

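Beyond the margin, 90.8 to 91.0 kb above the gamma genes, endogenous Sox2 and Halo-Sox2D peaks came closer to each other than anywhere inside the locus. They lay in Diaph1, a formin gene that adjoins the gamma cluster, 2.79 to 2.92 kb below its upper end. The endogenous Sox2 peaks were at 37932769 to 37932782 and 37932782 to 37932782, and the Halo-Sox2D peaks at 37932692 to 37932704 and 37932832 to 37932837, one on each side. Centres of peaks of different libraries were 52.5 to 84 bp apart and no endogenous Sox2 peak overlapped a Halo-Sox2D peak, while the pair of endogenous Sox2 peaks met at base 37932782. Halo-Sox2 and Halo-Sox2M had no peak there. The locus with its margins held only 2 endogenous Sox2 peaks, so being closer than inside it is a weak standard. The genome-wide share of endogenous Sox2 peaks this close to a Halo-Sox2D peak is not given here.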
